A study of Homo sapiens with 6 samples.

Results

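The IGF-binding proteins and IGF receptors were followed as 10 genes out of the 50868 with values: IGFBP1 to IGFBP7, IGF1R, IGF2R and the receptor substrate IRS1. The family was chosen by the measured FPKM of IGFBP3, which exceeded the control hairpin with each of 2 hairpins against LNMAT1 in either cell line, and the other 9 genes were taken as its relatives and partners. Differences from the control hairpin are therefore a description with no test, and the test below compares the lines. The libraries came from UM-UC-3 and 5637, both established human bladder cancer lines, sequenced after lentiviral delivery of a short hairpin and puromycin selection for stable lines. In each line 1 library carried the control hairpin (sh-NC), and 1 each carried hairpin #1 (sh-LNMAT1#1) or hairpin #2 (sh-LNMAT1#2), so that 6 libraries were compared and no construct had a replicate. Virus, polybrene and puromycin were shared by the sh-NC and sh-LNMAT1 cells. UM-UC-3 was grown in Dulbecco's medium and 5637 in RPMI medium, so line and medium cannot be told apart. The hairpins act on the transcript LNMAT1 by RNA interference and leave part of it in place, and whether the stable lines were clonal is not given in the sources used here.

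IGF1 and IGF2 are secreted growth factors that signal through the tyrosine kinase IGF1R, which docks IRS1 and activates the PI3K and AKT pathway. IGF-binding proteins hold the ligands in the pericellular space and in blood, where they prolong their life, restrict their access to the receptor, or release them after cleavage by proteases such as PAPP-A. In tumors of the urothelium and other epithelia the receptor is known as a growth and survival signal, and several binding proteins also act on cells without a ligand.

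LNMAT1 is listed as LINC01296 and was read first as a check of the labels. In UM-UC-3, LINC01296 was 14.2 FPKM in the control, 6.20 FPKM under hairpin #1 and 6.70 FPKM under hairpin #2. In 5637, LINC01296 was 4.70 FPKM under hairpin #1 and 2.14 FPKM under hairpin #2, while the library labelled 5637 sh-NC held 11.7 FPKM. FPKM is the number of fragments scaled to the length of the gene and the depth of the library. The silenced transcript was lower in each sh-LNMAT1 library than in the sh-NC library of the same label.

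The library labelled 5637 sh-NC stood apart from its line. Across 12717 genes averaging 1 FPKM or more, its log2 values had a Pearson r of 0.922 with the UM-UC-3 control, and of 0.985 and 0.933 with UM-UC-3 hairpins #1 and #2. The r was 0.617 and 0.622 with 5637 hairpins #1 and #2. These are values across genes of the same libraries, and genes are not independent replicates. The 10 epithelial markers summed to 27.1 FPKM in the library labelled 5637 sh-NC, next to 24.9, 21.6 and 31.0 FPKM in the UM-UC-3 libraries and 741 and 979 FPKM in the 5637 knockdown libraries. In the 5637 knockdown libraries 9 of these 10 markers were at or above 1 FPKM and KRT19 was the most abundant. In the library labelled 5637 sh-NC and in the UM-UC-3 libraries 2 of 10 were, KRT8 and KRT18. CDH1 was 19.2 and 14.1 FPKM in the 5637 knockdown libraries and 0.00924 FPKM in this library. The 8 mesenchymal markers summed to 166 FPKM there, to 401, 186 and 230.2 FPKM in the UM-UC-3 libraries, where VIM was the most abundant, and to 136 and 135 FPKM in the 5637 knockdown libraries, where FN1 was. For 5637, knockdown and whatever set this library apart cannot be told apart. For the members, each 5637 comparison with it is given below beside the values of the UM-UC-3 libraries. The line difference was taken without it.

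The urothelial list summed to between 1.68 and 30.1 FPKM over the 6 libraries, with PPARG the most abundant in the 5637 knockdown libraries and UPK1B listed at 0 in all 6. Its sum was 30.1 and 29.1 FPKM in the 5637 knockdown libraries and 3.90 FPKM in the library labelled 5637 sh-NC. The leukocyte list summed to between 1.23 and 31.1 FPKM, led by CD68 in each library, while CD3E and LYZ were listed at 0 in all 6 libraries. The endothelial list reached at most 0.303 FPKM and the fibroblast list at most 8.35 FPKM, of which COL1A1 was 7.92 FPKM. In these bulk libraries fewer cells with a transcript and less of it in each cell cannot be told apart.

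The ligands are the input of the system and were read before the binding proteins. IGF1, the hormone made mainly by liver, was listed at 0 in all 6 libraries, and INS, the pancreatic hormone, reached at most 0.0278 FPKM. IGF2, the growth factor of fetal and tumor tissue, was 2.73 FPKM in the UM-UC-3 control, 1.48 FPKM under hairpin #1 and 2.04 FPKM under hairpin #2. In 5637, IGF2 was 17.9 FPKM under hairpin #1 and 9.58 FPKM under hairpin #2, while the library labelled 5637 sh-NC held 1.77 FPKM. The ligand was thus low in 4 libraries, the one labelled 5637 sh-NC included, and high in the 5637 knockdown libraries, with no overlap. How many of all genes set the 5637 knockdown libraries apart in this way was not counted, for IGF2 or for the genes below. In the line comparison below, 20.1% of all genes were higher in 5637. INS-IGF2, a readthrough transcript on the same strand that shares exons with IGF2, stayed at or under 0.110 FPKM, and IGF2-AS on the other strand at or under 0.870 FPKM. How reads of overlapping genes were divided is not given in the sources used here.

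Of the binding proteins, IGFBP3 and IGFBP4 are shown first because each exceeded the UM-UC-3 control under hairpins #1 and #2. IGFBP3 (ENSG00000146674) lies on the minus strand of chromosome 7 of hg38, from 45912245 to 45921874, and IGFBP4 (ENSG00000141753) on the plus strand of chromosome 17, from 40443461 to 40457731. Promoter sequences were read for 8 of the 10 genes from RefSeq on GRCh38.p14, as the 250 bases before each start on the strand of the gene, and none was read for IGFBP1 and IGFBP7. Below are those of IGFBP3 (chr7:45921273-45921522, minus strand), IGFBP4 (chr17:40443200-40443449, plus strand) and IGF1R (chr15:98648289-98648538, plus strand), the genes with an entry that were higher in the 5637 knockdown libraries, each written 5′ to 3′ with matches to the motifs searched in capitals.
IGFBP3: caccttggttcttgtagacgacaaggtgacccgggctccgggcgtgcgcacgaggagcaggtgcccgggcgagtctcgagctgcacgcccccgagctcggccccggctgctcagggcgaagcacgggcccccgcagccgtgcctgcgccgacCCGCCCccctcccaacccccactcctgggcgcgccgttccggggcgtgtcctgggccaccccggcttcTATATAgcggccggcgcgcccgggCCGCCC
IGFBP4: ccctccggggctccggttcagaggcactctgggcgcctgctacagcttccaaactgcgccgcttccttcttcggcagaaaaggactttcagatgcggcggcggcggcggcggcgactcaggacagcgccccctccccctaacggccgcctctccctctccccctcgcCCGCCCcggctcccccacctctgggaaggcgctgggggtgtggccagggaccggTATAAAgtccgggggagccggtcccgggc
IGF1R: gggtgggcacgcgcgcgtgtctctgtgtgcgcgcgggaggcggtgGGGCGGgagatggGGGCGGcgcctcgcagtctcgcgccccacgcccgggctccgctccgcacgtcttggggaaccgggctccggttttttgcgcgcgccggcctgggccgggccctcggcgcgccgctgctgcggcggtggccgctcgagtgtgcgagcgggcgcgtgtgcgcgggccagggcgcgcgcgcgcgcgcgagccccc
The letters TATAAA, known as the TATA box, were searched on both strands, as was its alternating variant TATATA. The GC box was searched as GGGCGG, the E-box as CACGTG and the AP-1 motif as TGACTCA. Since TATATA and CACGTG read the same on either strand, each was counted once, and TATAAA and TATATA can overlap. IGFBP3 held TATATA, beginning 30 bases before the start, and 2 GC boxes written here as CCGCCC. IGFBP4 held TATAAA, beginning 29 bases before the start, and 1 GC box. IGF1R held 2 GC boxes and neither TATA motif. Of 35116 promoters of the same length, 10.7% held TATAAA, 3.73% held TATATA, 42.6% held GGGCGG, 6.34% held CACGTG and 4.20% held TGACTCA. In the other entries IGF2R held 6 GC boxes and 3 E-boxes, IRS1 held 4 GC boxes, IGFBP6 held 1, IGFBP2 held 1 at each of 2 of its 3 starts, and IGFBP5 held none of the motifs. The dinucleotide CG stood 32 times in the IGFBP3 window, 24 times in IGFBP4 and 48 times in IGF1R, against a median of 11 over all promoters. The RefSeq starts of IGFBP3 and IGFBP6, and later starts of IGFBP2, lie inside the gene as the deposited table bounds it. The IGF1R window ends at 98648538, ahead of the IGF1R start at 98648971 in the same table. Matches to these letters are a description only.

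IGFBP3 encodes the main carrier of IGFs in blood. In UM-UC-3, IGFBP3 was 0.999 FPKM in the control, 3.56 FPKM under hairpin #1 and 4.28 FPKM under hairpin #2. In 5637, IGFBP3 was 20.5 FPKM under hairpin #1 and 46.0 FPKM under hairpin #2, while the library labelled 5637 sh-NC held 5.74 FPKM. In UM-UC-3 both knockdown libraries were above the control, and both 5637 knockdown libraries were above the other 4. The ratio of FPKM to the control was 3.57 and 4.28 in UM-UC-3. On the scale of log2(FPKM + 0.5), used for all differences below and understating the change of low genes, IGFBP3 was higher by 1.44 and 1.67 under the UM-UC-3 hairpins, and by 1.75 and 2.90 under those of 5637 relative to the library labelled 5637 sh-NC. Both comparisons of a line share its sh-NC library. The library labelled 5637 sh-NC held more IGFBP3 than any UM-UC-3 library, as it did IGF1R, unlike IGFBP4, IGF2 and IGFBP7, for which it lay within or below the range of the UM-UC-3 libraries.

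IGFBP4 encodes a binding protein that blocks IGF action until PAPP-A cleaves it. In UM-UC-3, IGFBP4 was 7.73 FPKM in the control, 20.5 FPKM under hairpin #1 and 14.9 FPKM under hairpin #2. In 5637, IGFBP4 was 137 FPKM under hairpin #1 and 89.9 FPKM under hairpin #2, while the library labelled 5637 sh-NC held 15.2 FPKM. As for IGFBP3, the 5637 knockdown libraries were far above the rest, but hairpin #1 and not #2 gave the higher value in each line. Because IGFBP4 has 1 annotated transcript, its FPKM came out as whole fragments: 420.0 in the UM-UC-3 control, 1005 and 754 under its hairpins, 6248 and 3834 under the 5637 hairpins, and 750.0 for the library labelled 5637 sh-NC. The ratio of FPKM to the UM-UC-3 control was 2.65 under hairpin #1 and 1.93 under hairpin #2, which put IGFBP4 just short of 2-fold with the latter.

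IGFBP6, a binding protein that prefers IGF2, differed between the hairpins in UM-UC-3 alone. In UM-UC-3, IGFBP6 was 7.92 FPKM in the control, 24.3 FPKM under hairpin #1 and 7.15 FPKM under hairpin #2. In 5637, IGFBP6 was 8.38 FPKM under hairpin #1 and 8.45 FPKM under hairpin #2, while the library labelled 5637 sh-NC held 18.0 FPKM. The 2 high libraries were UM-UC-3 hairpin #1 and the library labelled 5637 sh-NC, the pair with the highest r across genes, and the other 4 lay close together. Relative to the UM-UC-3 control the log2 difference of IGFBP6 was 1.56 under hairpin #1 and -0.14 under hairpin #2.

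IGFBP7, a secreted protein of low affinity for IGFs, was nearly confined in these 6 libraries to the 5637 knockdowns. In 5637, IGFBP7 was 10.5 FPKM under hairpin #1 and 13.2 FPKM under hairpin #2, and in the library labelled 5637 sh-NC it was listed at 0. In UM-UC-3, IGFBP7 was 0.0197 FPKM in the control, 0.0873 FPKM under hairpin #1 and 0.0212 FPKM under hairpin #2. The library labelled 5637 sh-NC again sat with UM-UC-3, where the values stand for 0.502 to 0.938, 2.01 to 3.75 and 0.502 to 0.939 fragments, depending on whether the shortest transcript or all exons are taken as the length. Against a floor of 3 fragments, which is up to 0.129 FPKM in the library labelled 5637 sh-NC, IGFBP7 was at least 80.9-fold higher under 5637 hairpin #1 and at least 102-fold higher under hairpin #2. No ratio is given in UM-UC-3. POLR2B, which overlaps the locus on the other strand, reached 18.5 FPKM.

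IGFBP2, a binding protein with an integrin-binding sequence, went the other way. In UM-UC-3, IGFBP2 was 1.04 FPKM in the control, 0.809 FPKM under hairpin #1 and 0.529 FPKM under hairpin #2. In 5637, IGFBP2 was 0.0262 FPKM under hairpin #1 and 0.0916 FPKM under hairpin #2, while the library labelled 5637 sh-NC held 0.718 FPKM. Both 5637 knockdown libraries were below the other 4, at 0.260 to 2.60 and 0.846 to 8.46 fragments. IGFBP2 did not reach a mean of 1 FPKM in either line and stayed out of the counts below that use this limit.

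IGFBP1, which insulin represses in liver, and IGFBP5, a binding protein of bone and extracellular matrix, were at the limit of detection. IGFBP1 was listed at 0 in 4 libraries and at 0.0116 and 0.0249 FPKM in the 5637 knockdown libraries, each under the worth of 1 fragment at either length. IGFBP5 was listed at 0 in 5 libraries and at 0.00600 FPKM in UM-UC-3 hairpin #1. At the depth of these libraries a difference in IGFBP1 or IGFBP5 was not detectable. Both are neighbours of a binding protein that was detected. IGFBP1 ends 18.6 kb from IGFBP3 on chromosome 7, and IGFBP2 ends 7.7 kb from IGFBP5 on chromosome 2, each pair lying on opposite strands. For the first pair a shared position was not matched by a shared level, IGFBP3 reaching 46.0 FPKM beside IGFBP1 at 0.0249 FPKM in 5637 hairpin #2. For the second, IGFBP2 was at most 1.04 FPKM, in the UM-UC-3 control, where IGFBP5 was listed at 0. In 5637 hairpin #1 IGFBP2 was 0.0262 FPKM, and IGFBP5 was again listed at 0.

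**Figure D1:**
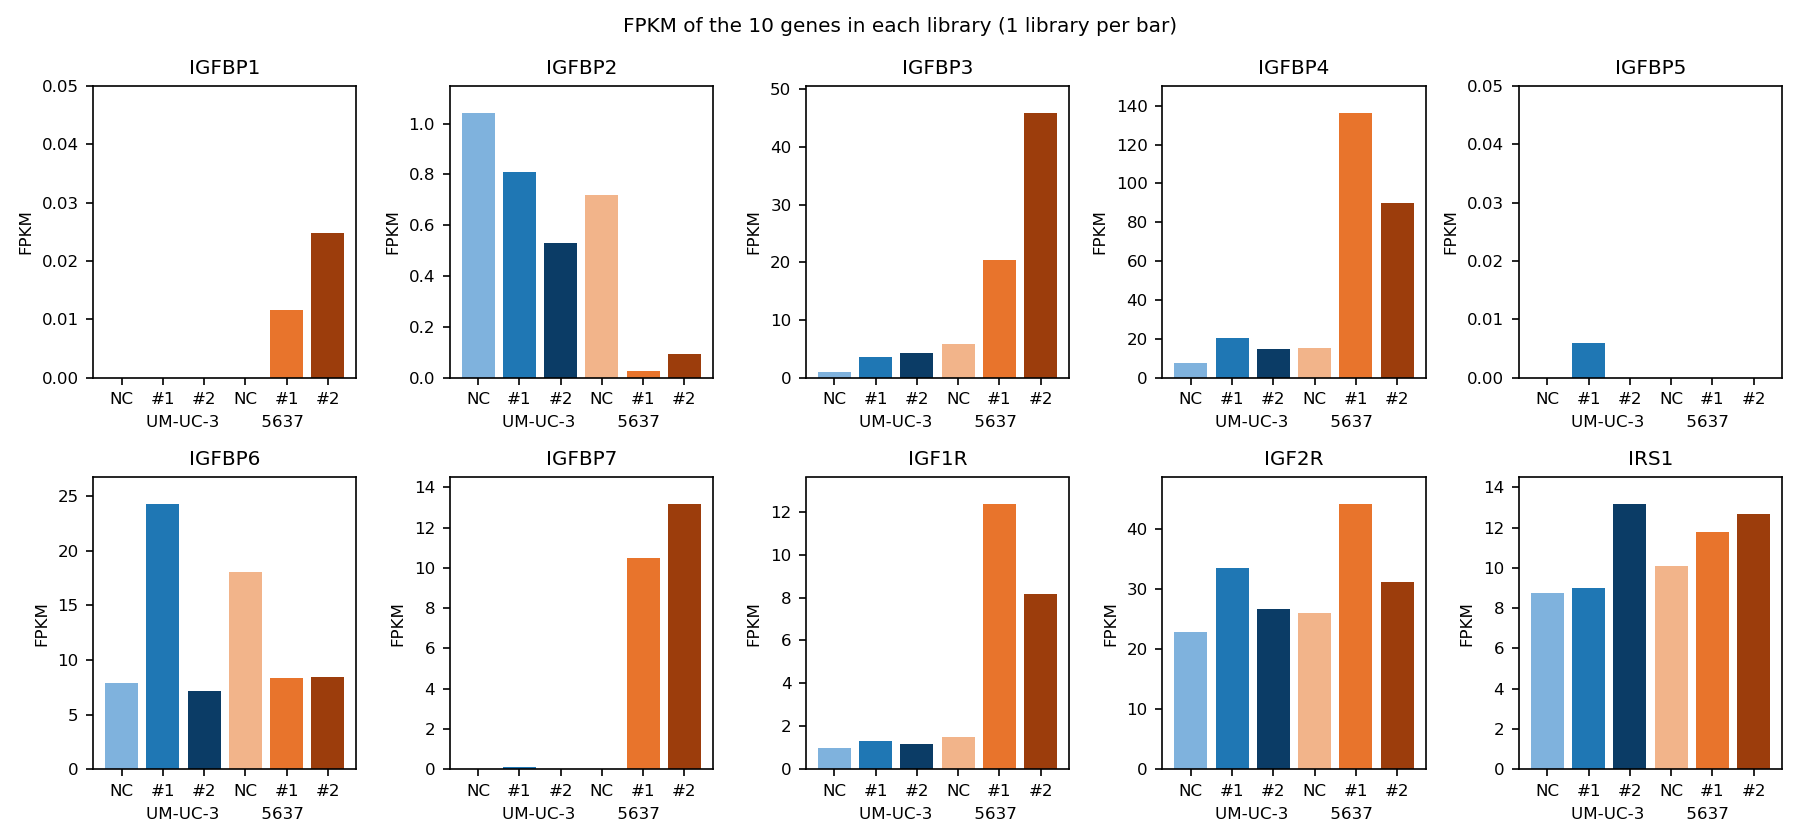
FPKM (y axis, each panel with its own scale from 0) of the 10 genes in the 3 UM-UC-3 libraries (blue) and the 3 libraries labelled 5637 (orange), 1 bar per library, for sh-NC (NC) and the 2 hairpins against LNMAT1 (#1 and #2). IGFBP3, IGFBP4, IGFBP7 and IGF1R were highest in the 5637 knockdown libraries, while IGFBP6 was highest in UM-UC-3 hairpin #1 at 24.3 FPKM.

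Summed per length, the 7 binding proteins came to 17.7 FPKM in the UM-UC-3 control, 49.3 FPKM under hairpin #1 and 26.9 FPKM under hairpin #2. In 5637 the sum was 176 FPKM under hairpin #1 and 158 FPKM under hairpin #2, while it was 39.7 FPKM for the library labelled 5637 sh-NC. IGFBP4 made up the largest share of the summed FPKM in 3 libraries, with 55.5% under UM-UC-3 hairpin #2 and 77.6% and 57.0% under 5637 hairpins #1 and #2. IGFBP6 led in the other 3, with 44.7% in the UM-UC-3 control, 49.3% under UM-UC-3 hairpin #1 and 45.4% in the library labelled 5637 sh-NC, where IGFBP4 followed with 43.6%, 41.6% and 38.3%. IGFBP3 was 5.64% of the sum in the UM-UC-3 control and 7.24% and 15.9% under its hairpins, 14.5% in the library labelled 5637 sh-NC and 11.6% and 29.2% in the 5637 knockdowns. IGFBP7 contributed 5.95% and 8.35% in the 5637 knockdowns and at most 0.177% elsewhere.

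**Figure D2:**
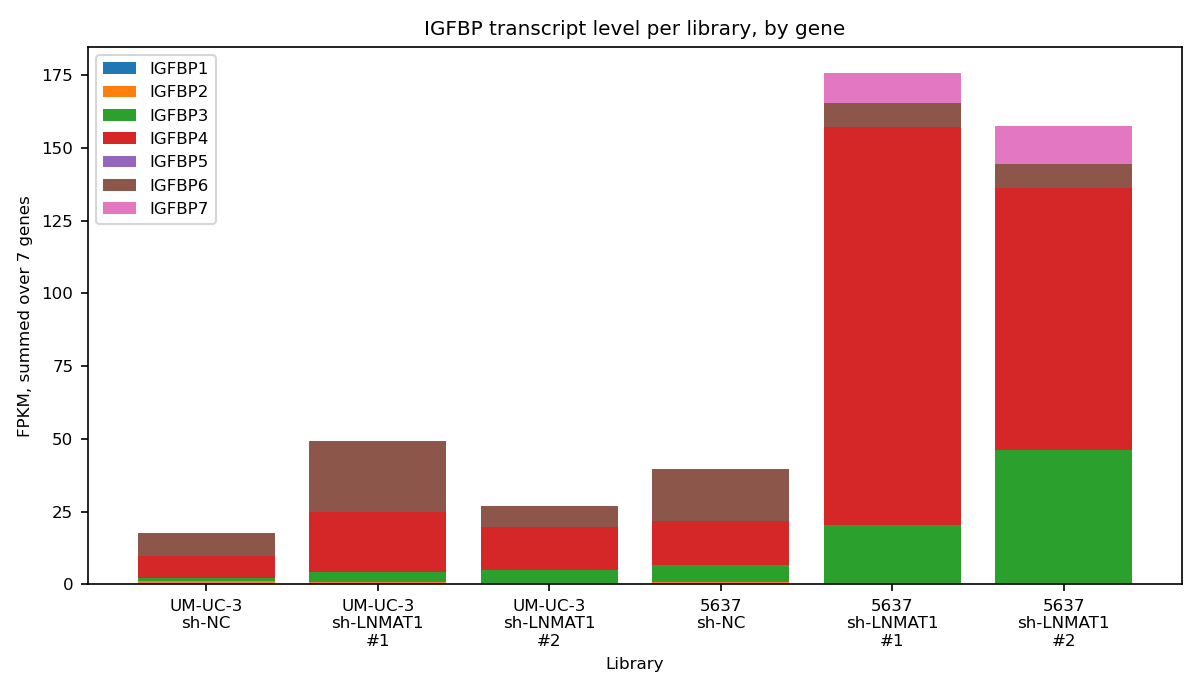
Summed FPKM of IGFBP1 to IGFBP7 (y axis) in each of the 6 libraries (x axis), each bar divided by gene. The 5637 knockdown libraries reach 176 and 158 FPKM, most of it IGFBP4, and the library labelled 5637 sh-NC reaches 39.7 FPKM, within the 17.7 to 49.3 FPKM of the UM-UC-3 libraries.

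IGF1R (ENSG00000140443) encodes the signaling receptor and lies on chromosome 15 from 98648971 to 98964530. In UM-UC-3, IGF1R was 1.00 FPKM in the control, 1.31 FPKM under hairpin #1 and 1.18 FPKM under hairpin #2. In 5637, IGF1R was 12.4 FPKM under hairpin #1 and 8.18 FPKM under hairpin #2, while the library labelled 5637 sh-NC held 1.48 FPKM. The receptor was low in UM-UC-3 with either construct and in the library labelled 5637 sh-NC, and high in both 5637 knockdown libraries. The log2 difference of IGF1R from the UM-UC-3 control was 0.27 and 0.16, and that from the library labelled 5637 sh-NC was 2.70 and 2.13. IGF2R, the mannose 6-phosphate receptor that clears IGF2 to lysosomes, varied less than IGF1R. In UM-UC-3, IGF2R was 22.8 FPKM in the control, 33.5 FPKM under hairpin #1 and 26.7 FPKM under hairpin #2. In 5637, IGF2R was 44.1 FPKM under hairpin #1 and 31.2 FPKM under hairpin #2, while the library labelled 5637 sh-NC held 25.9 FPKM. The lines overlapped, and hairpin #1 gave the higher value in each. Per length, IGF2R transcripts exceeded IGF1R transcripts in each library.

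IRS1 encodes the docking protein through which the receptor reaches PI3K. In UM-UC-3, IRS1 was 8.73 FPKM in the control, 8.98 FPKM under hairpin #1 and 13.2 FPKM under hairpin #2. In 5637, IRS1 was 11.8 FPKM under hairpin #1 and 12.7 FPKM under hairpin #2, while the library labelled 5637 sh-NC held 10.1 FPKM. Its levels overlapped between lines and constructs. Of the related receptors, INSR, the insulin receptor, was 3.82 and 2.87 FPKM in the 5637 knockdown libraries and between 1.38 and 2.35 FPKM in the other 4. LRP1, an endocytic receptor, lay between 3.19 and 7.97 FPKM and TMEM219, a receptor of IGFBP3, between 6.28 and 10.97 FPKM, while INSRR, the insulin receptor-related receptor, stayed at or under 0.132 FPKM.

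Of the 10 genes, 6 passed the limit of a mean of 1 FPKM over the libraries of UM-UC-3 and 7 over those labelled 5637. For UM-UC-3 1 of 6, IGFBP3, exceeded the control at least 2-fold with both hairpins, as did 1.08% of 12025 genes. With both hairpins 0 of 6 were at least 2-fold lower, as were 0.358% of all genes. In 5637, against the library labelled sh-NC, 4 of 7 were higher (IGFBP3, IGFBP4, IGFBP7 and IGF1R), as were 18.5% of 12791 genes, and 1 of 7 was lower (IGFBP6), as were 12.3%. IGFBP7 passed the limit only through the knockdown libraries, where it is high, so it had to differ and adds nothing to this count. IGFBP3 led to the choice of the family, so nothing is read from its place in these counts. In the UM-UC-3 control IGFBP3 was 0.999 FPKM, under the limit, so it passed there through the knockdown libraries, where it is high. The 5637 counts cannot be made without the library labelled 5637 sh-NC. With hairpin #1 alone, IGFBP4 and IGFBP6 joined IGFBP3 in UM-UC-3, making 3 of 6 beside 5.55% of all genes, and with hairpin #2 alone the count was 1, again IGFBP3, beside 2.10%.

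**Figure D3:**
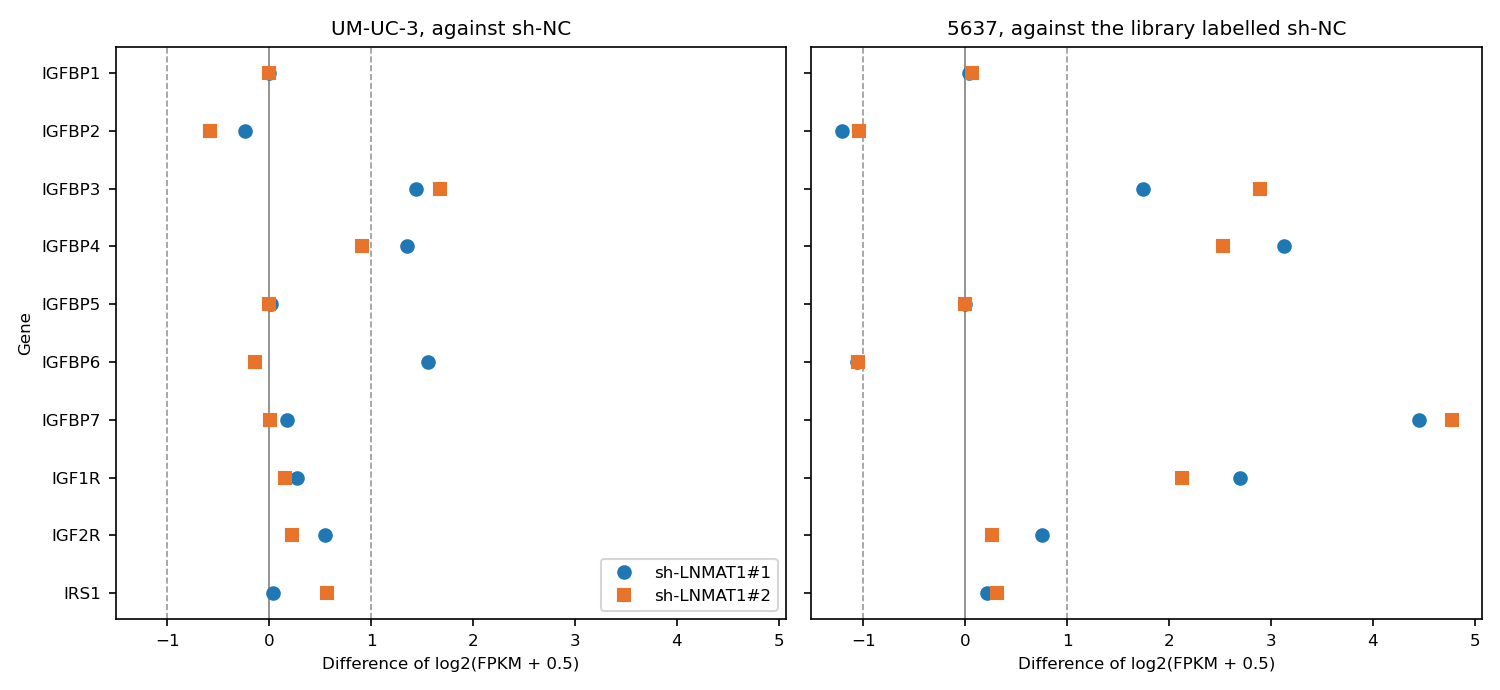
Difference of log2(FPKM + 0.5) from sh-NC (x axis) for each of the 10 genes (y axis) with sh-LNMAT1#1 (circles) and sh-LNMAT1#2 (squares), in UM-UC-3 (left) and in 5637 against the library labelled sh-NC (right); dashed lines mark a 2-fold difference. IGFBP3 is past 2-fold with both hairpins in both panels, with UM-UC-3 values of 1.44 and 1.67.

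The lines were then compared over the 4 knockdown libraries, 2 of each line, without the library labelled 5637 sh-NC, by limma across 12844 genes. Of 7 members tested, 4 were higher in 5637, as were 20.1% of all genes, and 0 were lower, as were 18.4%. IGFBP7 passed the filter through 5637 alone and so had to be higher there. Its difference was 4.47, a size that depends on the pseudocount because its UM-UC-3 values are at the floor, and no p is read from it. With a mean of 1 FPKM asked of each line, a filter added after the data were seen, 3 of 6 members were higher, as were 12.1% of 10476 genes, and 0 were lower, as were 13.4%. With no filter all 10 were tested, and 4 were higher and 1 lower, IGFBP2, beside 8.64% and 6.16% of 35185 genes. IGFBP3 was higher by 2.82 ± 0.40 (SE, n = 2 against 2, adjusted p = 0.00487 by limma), IGFBP4 by 2.63 ± 0.29 (adjusted p = 0.00195) and IGF1R by 2.60 ± 0.26 (adjusted p = 0.00145), each on the log2 scale and in 2 of 2 libraries against 2 of 2. The comparison shares libraries with the changes that chose IGFBP3, so its p is not independent support. IGF2 was higher in 5637 by 2.60 ± 0.35 (adjusted p = 0.00383), but without 5637 hairpin #1 its difference was 2.17 (adjusted p = 0.0640). INSR differed by 0.71 (adjusted p = 0.105), without UM-UC-3 hairpin #1 by 1.01 (adjusted p = 0.0455), and with the UM-UC-3 control added by 0.82 (adjusted p = 0.0445). IGF2R differed by 0.31 ± 0.25 (adjusted p = 0.380), IRS1 by 0.16 ± 0.25 (adjusted p = 0.637) and IGFBP6 by -0.63 ± 0.55 (adjusted p = 0.407), which did not pass the threshold. IGFBP6 rests on 1 library: without UM-UC-3 hairpin #1 its difference was 0.22 (adjusted p = 0.342), and without UM-UC-3 hairpin #2 it was -1.48 (adjusted p = 0.00918). The p-values measure the spread between the hairpins within a line, which are different constructs in single cultures, and lines, media and selections cannot be told apart. With all 6 libraries taken by their labels, 2 genes in all passed and none of the members did. IGFBP3, IGFBP4 and IGF1R then had differences of 2.57, 2.06 and 1.87, each at an adjusted p of 0.335 by limma.

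Among the other genes of the system, 71 symbols in 7 lists were found in 72 rows, 49 of which passed the filter in UM-UC-3 and 51 in 5637. Under the UM-UC-3 hairpins 0 were at least 2-fold higher with both hairpins and 1 was lower, MMP9, beside 1.08% and 0.358% of all genes. In 5637 10 were higher and 9 lower against the library labelled sh-NC, which is 19.6% and 17.6% of the 51, beside 18.5% and 12.3% of all genes. Of these 19, 5 passed the filter only through the libraries where they are high and so had to differ, among them FOXO4, ADAM12, GRB10 and IGFBPL1. The median mean difference over the lists was -0.01 in UM-UC-3 and 0.23 in 5637, beside 0.00 and 0.06 over all genes kept. In the line difference 9 of 53 were higher and 13 lower in 5637, or 17.0% and 24.5% beside 20.1% and 18.4%. With a mean of 1 FPKM asked of each line, 6 of 45 were higher and 9 lower, beside 12.1% and 13.4%.

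Proteases and their inhibitors decide how much ligand is freed from a binding protein. MMP9, a gelatinase that cleaves IGFBP3, was 12.9 FPKM in the UM-UC-3 control, 2.08 FPKM under hairpin #1 and 2.80 FPKM under hairpin #2. In 5637, MMP9 was 0.0206 FPKM under hairpin #1 and listed at 0 under hairpin #2, while the library labelled 5637 sh-NC held 2.67 FPKM. MMP9 was thus lower in both knockdown libraries than in the sh-NC library of the same label, and below the filter in 5637. In the library labelled 5637 sh-NC, MMP9 lay within the range of the UM-UC-3 libraries. Whether its 5637 difference comes from knockdown or from the line was not tested. PAPPA2, a protease of IGFBP5, was 0.269 FPKM in the UM-UC-3 control, 3.70 FPKM under hairpin #1 and 0.817 FPKM under hairpin #2. Its FPKM ratios were 13.8 and 3.04, but on the log2 scale with the pseudocount it was short of 2-fold with hairpin #2, at 0.78. In 5637, where PAPPA2 was below the filter, it was 0.0687 FPKM under hairpin #1 and 0.148 FPKM under hairpin #2, while the library labelled 5637 sh-NC held 1.98 FPKM. The other members of this list past 2-fold were found in 5637. PLAT, MMP2 and CTSD were higher, by mean log2 differences of 2.41, 1.97 and 1.28. ADAM12, STC1 and TIMP1 were lower, at -4.45, -2.69 and -2.03. In the library labelled 5637 sh-NC, PLAT, MMP2, CTSD and TIMP1 lay within the range of the UM-UC-3 libraries. ADAM12 was 11.1 FPKM there, beside 12.1 to 25.3 FPKM in UM-UC-3. STC1 was 59.9 FPKM there, beside 13.1 to 52.9 FPKM in UM-UC-3. Whether these 5637 differences come from knockdown or from the line was not tested. PLAT is a plasminogen activator, MMP2 a gelatinase and CTSD a lysosomal protease, ADAM12 cleaves IGFBP3 and IGFBP5, STC1 inhibits PAPP-A and TIMP1 inhibits metalloproteinases. In the line difference 3 of 13 genes of this list were higher in 5637 and 6 lower, beside 20.1% and 18.4% of all genes, and the 13 include genes that passed the filter through 1 line alone. In other lists, TSC2, an inhibitor of mTOR (FPKM ratios of 2.17 and 2.12), and the phosphatase PTPN11 (0.403 and 0.496) were likewise past 2-fold in 5637 by ratio, but not with both hairpins on the log2 scale.

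In the PI3K and AKT branch 4 of 23 genes kept in 5637 were higher and 2 lower, beside 18.5% and 12.3% of all genes, and 0 of 21 were past 2-fold in UM-UC-3, beside 1.08% higher and 0.358% lower. Among those higher, FOXO4 and FOXO1, transcription factors that AKT restrains, had mean log2 differences of 2.13 and 1.17, and AKT1, the kinase, of 1.34. EIF4EBP1, a translation repressor under mTOR, and PIK3CA, the catalytic subunit of PI3K, were lower, at -1.81 and -1.35. In the library labelled 5637 sh-NC, FOXO4 and PIK3CA lay within the range of the UM-UC-3 libraries. FOXO1 and EIF4EBP1 lay above that range and AKT1 below it. In the line difference 4 of 23 genes were higher and 2 lower, beside 20.1% and 18.4%.

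The remaining lists were short. Their counts stand beside 18.5% of all genes higher and 12.3% lower in 5637, and 1.08% and 0.358% in UM-UC-3. Of 7 adaptors and substrates kept in 5637, 1 was lower, GRB10, an adaptor that inhibits the receptor, from 3.90 FPKM in the library labelled 5637 sh-NC to 0.212 and 0.307 FPKM, while UM-UC-3 held 3.45, 5.17 and 4.88 FPKM. Of 4 genes for the ternary complex and IGFBP-related proteins, CTGF and CYR61, matricellular proteins with an IGFBP-like domain, were lower by the list's largest differences, -5.62 and -4.22, and IGFBPL1, an IGFBP-like protein, was 2.42 and 2.36 FPKM in the 5637 knockdown libraries and 0.0408 FPKM in the library labelled 5637 sh-NC. IGFALS, the subunit that joins IGFBP3 in the circulating complex, stayed at or under 0.126 FPKM. Of the IGF2 mRNA-binding proteins, IGF2BP3 was higher at 1.98, IGF2BP2 lower at -1.42, and IGF2BP1 stayed at or under 0.0439 FPKM. CTGF, CYR61, IGF2BP3 and IGF2BP2 in the library labelled 5637 sh-NC lay within the range of the UM-UC-3 libraries. None of these lists held a gene that changed 2-fold with both hairpins in UM-UC-3.

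**Figure D4:**
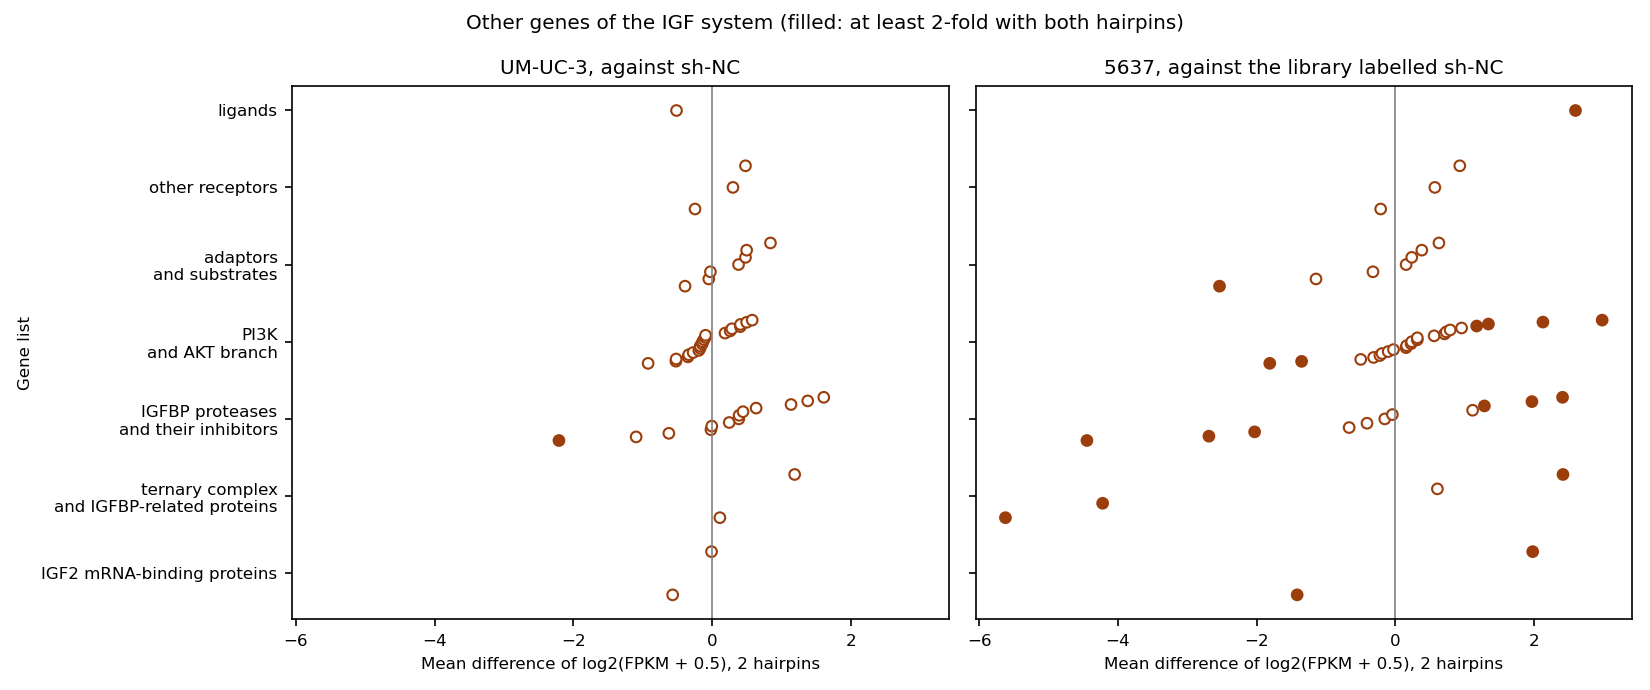
Mean difference of log2(FPKM + 0.5) from sh-NC over the 2 hairpins (x axis) for the genes of 7 lists (y axis) kept in UM-UC-3 (left) and in 5637 against the library labelled sh-NC (right), 1 point per gene, filled where both hairpins were at least 2-fold in the same direction. In UM-UC-3 the filled point is MMP9 alone, and in 5637 there are 10 filled points above 0 and 9 below.

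IGFBP3 had the widest range of the members over the 6 libraries with the pseudocount of 0.5, 4.95 on the log2 scale beside 4.77 for IGFBP7. With a pseudocount of 0.1, tried after the data were seen, IGFBP7 had the wider range, 7.05 beside 5.39. The pattern of IGFBP3 was compared with that of 11575 other genes. The 5 closest were WDR37 (r = 0.997), COA3 (r = 0.995), ERLIN2 (r = 0.994), WRAP73 (r = 0.992) and SLC25A44 (r = 0.989), over 6 libraries that share 2 lines and 3 constructs. ERLIN2 was 1.67, 2.51 and 2.68 FPKM in UM-UC-3 (control, hairpin #1, hairpin #2), and 2.92, 4.32 and 5.02 FPKM in the libraries labelled 5637 in the same order. ERLIN2 had the libraries in the order of IGFBP3 over a much narrower range of levels. Among all genes compared, 887 had an r over 0.9, so a high r over 6 such libraries was common.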

How the data were processed

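RNA of UM-UC-3 and 5637 cells was sequenced in 6 libraries from a stranded mRNA kit. The authors deposited FPKM per gene, and their processing notes name HISAT2 and hg38; annotation, counting and strand setting are not given in the sources used here. Of 50869 rows, 1 had no values and was left out. Positions of 47448 genes matched GENCODE release 29. Depth was read from single-exon genes, whose FPKM times length fell within 0.05 of a whole number of fragments in at least 99.95% of values up to 30 fragments, and was 24710000 fragments in the UM-UC-3 control, 22280000 and 22950000 under hairpins #1 and #2, 22440000 in the library labelled 5637 sh-NC, and 20800000 and 19370000 under the 5637 hairpins. Bounds and floors cover counting error only.

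Differences were taken in log2(FPKM + 0.5), for genes averaging 1 FPKM or more in a line. The line difference used limma 3.58.1 in R 4.3.3 (lmFit, eBayes with trend, two-sided, 2 residual degrees of freedom, Benjamini-Hochberg adjustment over all genes kept, threshold 0.05), tested on simulated data. Python 3.11.15, numpy 2.4.6, pandas 2.3.3 and matplotlib 3.10.9 were used. Members and lists were chosen with earlier results of these data known. Genes named were all members, ligands and receptors, all but 1 of the list genes past 2-fold with both hairpins in a line, 3 list genes past it by ratio of FPKM alone, LINC01296, and the 5 genes most like the member of widest range.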

Additional observations from a re-analysis of the deposited data

Results flagged for a closer look

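Several genes of the system were displaced in opposite directions in the lines: both hairpins gave a higher value than sh-NC in one line and both a lower value in the other. The difference between the lines was not tested, and each 5637 change rests on the library labelled 5637 sh-NC. As the mean log2 difference in 5637 minus that in UM-UC-3, it was 3.11 for IGF2 and 1.17 for LRP1, which were higher in 5637 and lower in UM-UC-3. It was -5.41 for CYR61, -3.83 for STC1, -3.02 for GRB10, -2.67 for TIMP1, -2.10 for EIF4EBP1 and -0.70 for TMEM219, which were lower in 5637 and higher in UM-UC-3. Other list genes met the rule as well, so these are not all. PAPPA2 and PTPN11 had mean log2 differences of -2.03 and -1.14 in 5637 and 1.61 and 0.84 in UM-UC-3. Those of FOXO4 and TSC2 were 2.13 and 0.96 in 5637 and -0.38 and -0.19 in UM-UC-3. None of the 10 members was displaced in this way. How many of all genes met this rule was not counted, so neither result stands beside a background. Hairpins sharing a direction, at any size of difference, were common. For 5637, 48.3% of all genes kept were higher under each hairpin and 42.8% were lower. The corresponding UM-UC-3 shares were 33.0% and 31.6%.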

How the results depend on the processing

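In UM-UC-3 the count of members at least 2-fold changed with both hairpins was 1, IGFBP3, with pseudocounts of 0.1 and 1, 75th-percentile scaling, no filter and sh-LNMAT1#2 alone. It was 0 with a filter of 5 FPKM, which removes IGFBP3, and with a 4-fold limit, 2 with a 1.5-fold limit, which adds IGFBP4, and 3 with sh-LNMAT1#1 alone. In 5637 it was 5, 3 with a 4-fold limit, and 6 with no filter, which adds IGFBP2. Scaling moved the median difference of all genes in 5637 from 0.06 to 0.01. Of 54 alternative values of the members' mean differences (IGFBP1 in UM-UC-3 and IGFBP5 in 5637, at 0 throughout, left out), 42 moved by less than the SD between the hairpins and none of the called ones changed sign.

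The 4949 genes called in the line difference became 2325 with a filter of 5 FPKM and 2671 with 1 FPKM in each line (added after seeing the data), which test fewer genes, and 2 with all 6 libraries by label, when 0 members were called; they ranged from 1192 to 5573 when 1 of the 4 libraries was left out, the lone library of a line being assumed to vary like the others, and were 5250 with the hairpin number as a block. Without 5637 sh-LNMAT1#1 they were 1192 and without 5637 sh-LNMAT1#2 1221, the cause not being tested. IGFBP3, IGFBP4 and IGF1R passed in 39 of 42 alternatives, all but the fit by label, with an adjusted p of at most 0.0462. Without UM-UC-3 sh-LNMAT1#1 the sign turned for IGFBP6 (0.22), IRS1 (-0.10) and TMEM219 (0.19, from -0.08), none of which passed. For TMEM219 the difference was also 0.11 without 5637 sh-LNMAT1#2, 0.082 with UM-UC-3 sh-NC added and 0.15 with all 6 libraries. Over the leave-outs IGFBP6 ranged from -1.48 to 0.22, IRS1 from -0.10 to 0.42, TMEM219 from -0.35 to 0.19 and IGF2R from 0.06 to 0.55. Planned protein sequence features were not run.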
